A study of Mus musculus with 3 samples.

Results

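The smooth muscle contractile genes are 10 named genes whose products build and regulate the contractile filaments of smooth muscle, Acta2, Actg2, Tpm1, Tpm2, Cnn1, Tagln, Lmod1, Myh11, Myl9 and Des. They were picked by symbol, with earlier results of these data known, and all 10 were matched among the 27179 genes of the deposited table. The cells were wild-type mouse bone marrow stromal cells grown at 3% oxygen and given extracellular vesicles, membrane particles shed by cells, for 3 days. For the Ocn-EV group, the vesicles were taken from bone marrow plasma of mice that carried CAGS-Snorkel and Ocn-Cre, a driver of late osteoblasts. Donors for Prx1-EV carried CAGS-Snorkel and Prx1-Cre, a driver of limb mesenchyme and its descendants. Donors for All-EV, the control, were wild type. All donor mice were C57BL/6N, 6 months old, with 5 mice (2 males and 3 females) pooled for each vesicle preparation, and an HA antibody on magnetic beads was used to isolate the vesicles. The sources do not state how that antibody held vesicles of wild-type mice.

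Each group was 1 library made from 1 pooled preparation, so no difference below has a replicate check, no test between conditions was possible, and "higher" and "lower" compare single libraries. The libraries held 14233978 (Ocn-EV), 17269204 (Prx1-EV) and 15558165 (All-EV) reads on genes. Levels are the deposited normalised read counts. Bracketed ranges are 95% intervals for counting error only, as no source names molecular identifiers and reads can be copies of one molecule. The stromal label was checked against 10 marker genes, of which Col1a1, Col1a2, Col3a1, Thy1, Prrx1 and Cxcl12 reached a mean level of 50, whereas Lum had 0 reads in every library and Dcn at most 23. All 14 macrophage markers also reached that level. They took 1.05% of reads with Ocn-EV, 0.886% with Prx1-EV and 1.39% with All-EV. The 10 stromal markers took less in each library, at 0.525%, 0.342% and 0.081%.

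Smooth muscle shortens when a myosin made of heavy chain Myh11 and its regulatory light chain pulls on filaments of smooth muscle actin. Tropomyosins, calponin and transgelin lie along the actin, leiomodin starts new filaments, and desmin links the contractile units as an intermediate filament. Many of these genes are known targets of the serum response factor SRF, which binds a DNA element called the CArG box with its coactivators, myocardin and the myocardin-related factors. Fibroblasts and marrow stromal cells that become contractile are known to switch on Acta2, Tagln and Cnn1 as well.

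The promoters of Acta2 and Myl9 are shown because they are the ones that held a CArG-type element among the contractile gene promoters that could be read. RefSeq promoters of build GRCm38.p6, 250 bases before and 50 after a start site, were matched for 7 of the 10 genes. Actg2, Tagln and Myh11 were not matched. Each sequence below runs 5′ to 3′ and ends just before the table's start site, at chr19:34255374-34255493 on the minus strand for Acta2 and chr2:156775294-156775463 on the plus strand for Myl9. Capitals mark matches to a CArG box or to a CArG-like element, which has the same ends and at most 1 G or C among its 6 inner bases.
Acta2: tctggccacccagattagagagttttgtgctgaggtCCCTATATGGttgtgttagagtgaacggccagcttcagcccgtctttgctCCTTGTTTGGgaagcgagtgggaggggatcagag
Myl9: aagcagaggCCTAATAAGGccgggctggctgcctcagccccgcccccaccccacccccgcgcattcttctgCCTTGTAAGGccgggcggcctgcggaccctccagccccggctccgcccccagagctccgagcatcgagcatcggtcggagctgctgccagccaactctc
Counted from the table's start site, the matches lay at −84 to −75 and −34 to −25 in Acta2 and at −161 to −152 (the exact box) and −99 to −90 in Myl9. The Acta2 sequence lies wholly inside the annotated gene, chr19:34240336-34255585, and the Myl9 sequence ends inside its gene, chr2:156775408-156781657. Both start sites thus lie downstream of the outermost annotated gene start. The exact CArG box was found in 1 of the 7 promoters, that of Myl9, and in 1.63% of all 32851 promoters in the table. The CArG-like element, a wider form added after the Acta2 promoter had been read, was found in 2 of the 7, Acta2 and Myl9, and in 9.98% of all promoters. The E-box CANNTG was in all 7 contractile gene promoters and in 72.3% of all promoters, the GC box GGGCGG in 5 of the 7 and 35.7%, and the TEAD motif GGAATG in 3 of the 7 (Lmod1, Tpm1 and Acta2) and 14.7%. All motifs were read on both strands, every exact CArG box is also a CArG-like element, and a match describes the sequence only.

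Contractile genes other than Tpm1 were higher with both kinds of Cre-line vesicles than with control vesicles, and Tpm1 was lower. Reads of the 10 genes together made up 0.256% (0.253 to 0.258) of all reads with Ocn-EV and 0.235% (0.233 to 0.237) with Prx1-EV, against 0.0917% (0.0902 to 0.0933) with All-EV. Comparisons used the 11067 genes that averaged 50 or more over the 3 libraries, called all genes from here on. Relative to All-EV, 9 of the 10 exceeded a 1.5-fold increase with Ocn-EV, beside 13.8% of all genes, and 9 of the 10 with Prx1-EV, beside 12.7%. These 9 also exceeded 2-fold in both, beside 6.27% of all genes with Ocn-EV and 5.12% with Prx1-EV. With Ocn-EV 0 of the 10 were lower by 1.5-fold, beside 13.6% of all genes, or by 2-fold, beside 4.2%. With Prx1-EV 0 of the 10 were lower by 1.5-fold, beside 12.7%, or by 2-fold, beside 3.66%. The median log2 ratio of the 10 was 1.64 with Ocn-EV and 1.55 with Prx1-EV, against −0.02 and 0.00 over all genes. All 10 passed the minimum of 50, of which Myh11 and Des were under it in the All-EV library. Genes above All-EV made up 59.9% of all genes 2-fold apart with Ocn-EV and 58.3% with Prx1-EV, and 81.8% and 79.6% with libraries set to equal totals, which moved the median of all genes by 0.26 and 0.22. Both comparisons share the All-EV library, so they are not independent of each other. As the 10 genes and the lists below were chosen with earlier results of these data known, their counts are description only. In this bulk RNA, more contractile cells and more contractile RNA per cell cannot be told apart.

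**Figure D1:**
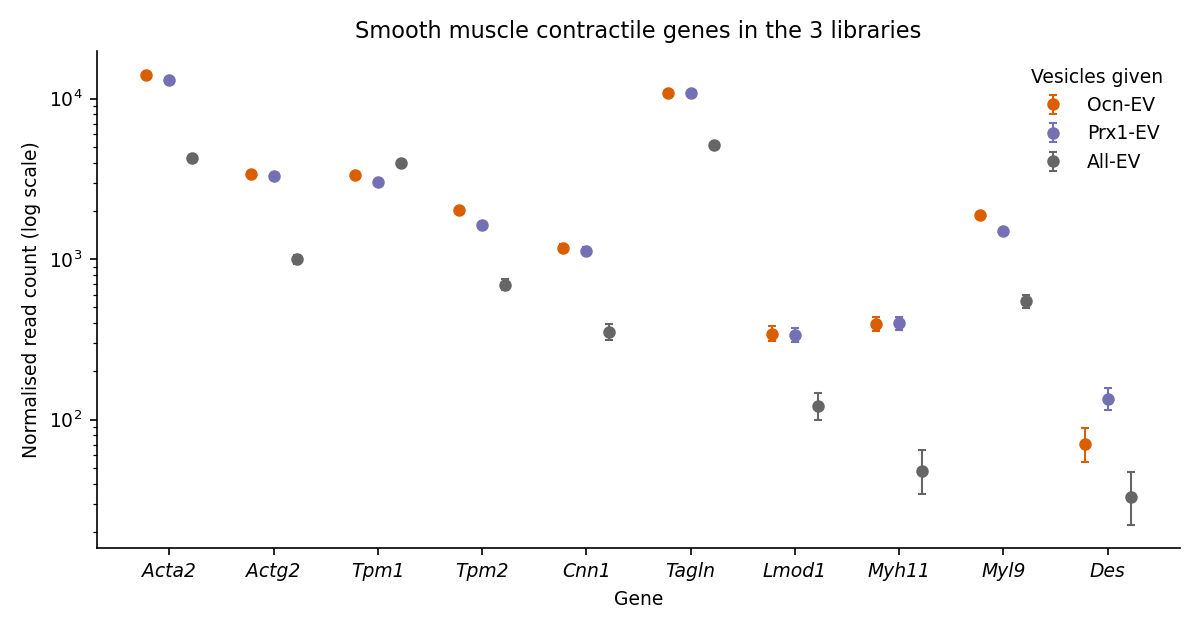
Normalised read count (log scale) of each contractile gene in the Ocn-EV, Prx1-EV and All-EV libraries, 1 library per group, with 95% counting intervals (smaller than the point where not visible). The Ocn-EV and Prx1-EV points lie above the All-EV point for every gene except Tpm1.

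The smooth muscle actins, which form the thin filament, were about 3-fold higher with both Cre-line vesicles. Acta2, the alpha actin of vascular smooth muscle (GRCm38 chr19:34240336-34255585, minus strand), stood at 14148 with Ocn-EV and 13111 with Prx1-EV, against 4240.4 with All-EV. The Ocn-EV level was 3.34-fold higher (log2 1.74, 1.69 to 1.79) and the Prx1-EV level 3.09-fold higher (log2 1.63, 1.58 to 1.68). Actg2, the gamma actin of gut smooth muscle, stood at 3416 with Ocn-EV and 3313 with Prx1-EV, against 1000.4 with All-EV. It was 3.41-fold (log2 1.77, 1.66 to 1.88) and 3.31-fold higher (log2 1.73, 1.62 to 1.83). Both actins were high in the Ocn-EV and Prx1-EV libraries and low in the All-EV library, by nearly the same factor. Actin coding sequences are much alike. None of the 150-base windows of the longest Acta2 or Actg2 transcript occurred in a transcript of another gene, and the same held for the other 8 contractile genes. Only exact matches were sought, so the assignment of shorter or mismatched reads from another gene was not tested.

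The tropomyosins, coiled-coil proteins that gate myosin binding along actin, were divided. Tpm2, the beta tropomyosin, stood at 2021 with Ocn-EV and 1628 with Prx1-EV, against 693 with All-EV, which is 2.92-fold (log2 1.54, 1.41 to 1.68) and 2.35-fold higher (log2 1.23, 1.10 to 1.37). Tpm1, the alpha tropomyosin, stood at 3326 with Ocn-EV and 3009 with Prx1-EV, against 3989 with All-EV. It was the only contractile gene highest with All-EV, 1.20-fold lower with Ocn-EV (log2 −0.26, −0.33 to −0.19) and 1.33-fold lower with Prx1-EV (log2 −0.41, −0.48 to −0.34). With libraries set to equal totals, these ratios were −0.01 and −0.18. Tpm1 and Tpm2 are known to make muscle and non-muscle isoforms, which values per gene do not separate.

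The actin-binding proteins were all higher. Cnn1, calponin, a brake on the myosin motor, stood at 1178 with Ocn-EV and 1124 with Prx1-EV, against 352 with All-EV, 3.35-fold (log2 1.74, 1.56 to 1.93) and 3.20-fold higher (log2 1.67, 1.496 to 1.86). Tagln, transgelin or SM22, an actin-bundling protein and early smooth muscle marker (chr9:45929628-45936058, minus strand), stood at 10869.9 with Ocn-EV and 10844 with Prx1-EV, against 5132 with All-EV. Its ratios were smaller, 2.12-fold (log2 1.08, 1.03 to 1.13) and 2.113-fold (log2 1.08, 1.03 to 1.13). Of the 1988 exon bases of Tagln, 1349 overlap genes on the opposite strand, and since the sources do not say whether counting used strand, its reads are less certain. Most of these bases lie in the antisense gene Gm48529, which was not matched by symbol in the deposited table, so its level is not known. Pcsk7, which covers the smaller remainder, stood at 460 with Ocn-EV and 437 with Prx1-EV, against 238 with All-EV. Lmod1, the smooth muscle leiomodin that nucleates actin filaments, stood at 344 with Ocn-EV and 337 with Prx1-EV, against 121 with All-EV, 2.84-fold (log2 1.498, 1.19 to 1.83) and 2.78-fold higher (log2 1.47, 1.16 to 1.80).

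The thick filament genes included the member farthest from its All-EV level. Myh11, the heavy chain that defines smooth muscle myosin (chr16:14194527-14292188, minus strand), had 382 reads with Ocn-EV and 457 with Prx1-EV, against 42 with All-EV, which are levels of 396, 399 and 47.5. Its ratio to All-EV was 8.32-fold for Ocn-EV (log2 3.03, 2.59 to 3.55) and 8.39-fold for Prx1-EV (log2 3.04, 2.61 to 3.56). Of the 11067 genes, 33 exceeded that ratio with Ocn-EV and 15 with Prx1-EV. Myl9, the regulatory light chain whose phosphorylation starts contraction (chr2:156775408-156781657, plus strand), stood at 1891 with Ocn-EV and 1497 with Prx1-EV, against 545 with All-EV. That is 3.47-fold (log2 1.79, 1.65 to 1.94) and 2.74-fold higher (log2 1.45, 1.31 to 1.61). Both were low with All-EV and high in the other two libraries.

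Des, desmin (chr1:75360292-75368579, plus strand), had the fewest reads, 68 with Ocn-EV and 155 with Prx1-EV, against 29 with All-EV. Its levels of 70.4, 135 and 32.8 gave ratios to All-EV of 2.15-fold with Ocn-EV (log2 1.08, 0.45 to 1.78) and 4.12-fold with Prx1-EV (log2 2.01, 1.46 to 2.67). Its exons overlap the antisense gene Gm15179 over 220 of 3754 bases, and Gm15179 had 0 reads in every library.

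**Figure D2:**
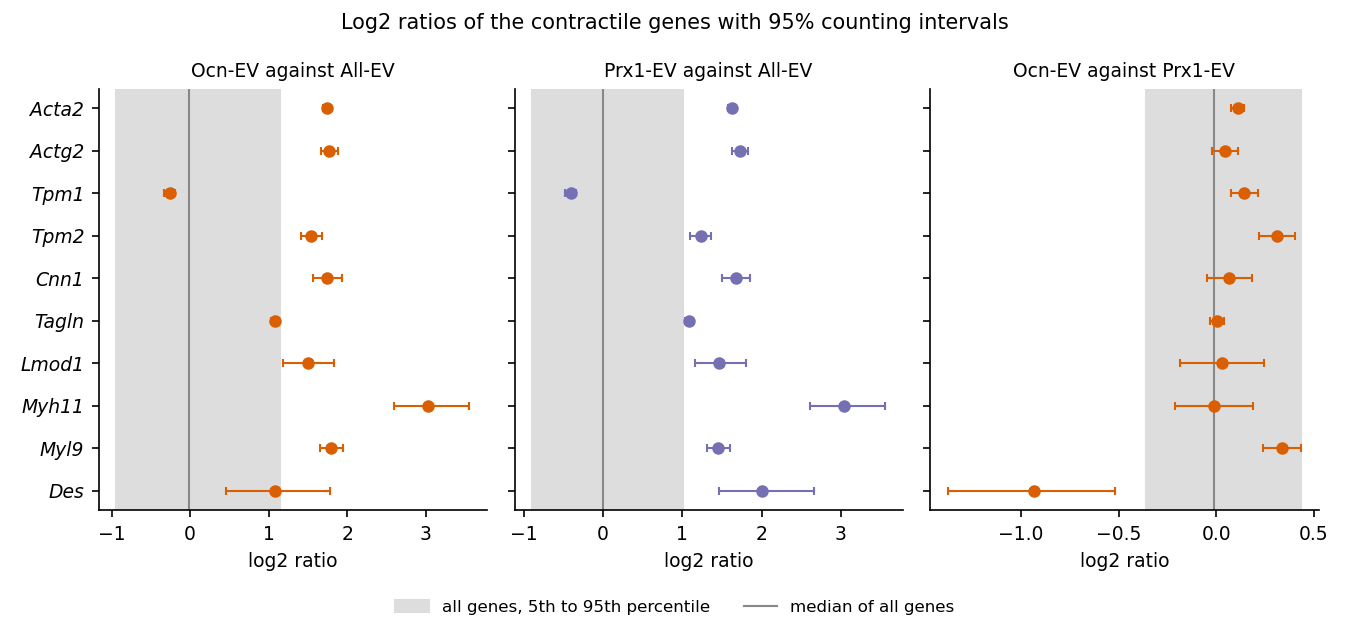
Log2 ratio of each contractile gene in the 3 comparisons, with 95% counting intervals, over the span from the 5th to the 95th percentile of all 11067 genes (grey) and their median (line). In the comparisons with All-EV, Tpm1 alone lies left of the median, Myh11 lies farthest right at 3.03 and 3.04, and in Ocn-EV against Prx1-EV only Des lies outside the grey span.

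Ocn-EV and Prx1-EV cultures were set against each other as well, a comparison that leaves out the All-EV library. With Ocn-EV 0 contractile genes were higher by 1.5-fold, beside 2.24% of all genes, or by 2-fold, beside 0.325%. 1 gene was lower by 1.5-fold, beside 1.3%, and 0 were lower by 2-fold, beside 0.19%. That gene was Des, at 70.4 with Ocn-EV and 135 with Prx1-EV, 0.521 times the Prx1-EV level (log2 −0.93, −1.37 to −0.52). Of the 11067 genes, 11040 had a higher ratio. Myl9 was 1.26-fold higher with Ocn-EV (log2 0.34, 0.24 to 0.43) and Tpm2 1.24-fold higher (log2 0.31, 0.22 to 0.40). Acta2 (log2 0.11, 0.08 to 0.14) and Tpm1 (log2 0.14, 0.07 to 0.21) were also higher by more than counting error. For Actg2, Cnn1, Tagln, Lmod1 and Myh11 the interval held 0, and the widest of these intervals, that of Lmod1, ran from −0.19 to 0.25. The median of the 10 was 0.06, against −0.01 over all genes.

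Levels of different genes can be set side by side only per length. Divided by the length of the longest GENCODE vM21 transcript, Acta2 (6952 per kilobase) and Tagln (6815) led with Ocn-EV and did not differ beyond counting error (ratio 1.02, 0.994 to 1.05). With Prx1-EV, Tagln (6799) was just ahead of Acta2 (6443), and with All-EV the gap was wider, at 3218 for Tagln against 2084 for Acta2. With Ocn-EV and with Prx1-EV the order then ran Actg2, Myl9, Tpm1, Tpm2, Cnn1, Lmod1, Myh11 and Des, and each step was larger than counting error. With All-EV the order was Tagln, Acta2, Tpm1, Actg2, Myl9, Tpm2, Cnn1, Lmod1, Des and Myh11, and only the last pair did not differ beyond counting error (ratio 1.49, 0.897 to 2.45). Tpm1 took place 5 with Ocn-EV and with Prx1-EV, against place 3 with All-EV. The counting intervals leave out the choice of length, and the order was not tested with another length. All annotated exons of Tpm1 span 6485 bases, against 2890 in its longest transcript. For Tpm2 these lengths are 2909 and 2175, for Acta2 2196 and 2035, and for Tagln 1988 and 1595. Places of genes close in this order, that of Tpm1 above all, thus depend on the length used. The highest and lowest of the 10 differed 299-fold with Ocn-EV, 152-fold with Prx1-EV and 443-fold with All-EV.

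Most contractile genes have paralogs that serve non-muscle cells, and the share of a gene family's reads that the smooth muscle form held does not depend on scaling between libraries. Acta2 and Actg2 together held 10.9% (10.7 to 11.01) of the reads of 6 actin genes with Ocn-EV and 10.1% (9.96 to 10.2) with Prx1-EV, against 2.69% (2.62 to 2.77) with All-EV. Myh11 held 1.13% (1.02 to 1.25) and 1.11% (1.01 to 1.21) of the reads of 4 myosin heavy chain genes, against 0.13% (0.0937 to 0.176) with All-EV. In each library Myh9, the main non-muscle heavy chain, held nearly all other reads of that family. Its log2 ratio to All-EV was −0.09 with Ocn-EV and −0.04 with Prx1-EV, and 0.17 and 0.18 with libraries set to equal totals.

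The share of Myl9 among 3 regulatory light chain genes was 27.6% (26.5 to 28.7) with Ocn-EV and 23.7% (22.8 to 24.7) with Prx1-EV, against 9.27% (8.49 to 10.1) with All-EV. Tagln held 70.5% (69.8 to 71.3) and 70.0% (69.3 to 70.7) of transgelin reads, against 38.4% (37.5 to 39.3). Tagln2, the transgelin of many non-muscle cells, was lower, with log2 ratios of −0.86 with Ocn-EV and −0.83 with Prx1-EV, and −0.60 in both with equal totals. Cnn1 held 17.0% (16.1 to 17.9) and 17.5% (16.6 to 18.4) of calponin reads, against 11.4% (10.3 to 12.7). Cnn3, a broadly expressed calponin, was also higher (log2 1.62 and 1.45).

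Among the 4 tropomyosin genes Tpm2 and Tpm1 went opposite ways. Tpm2 held 9.48% (9.08 to 9.89) of tropomyosin reads with Ocn-EV and 7.70% (7.37 to 8.05) with Prx1-EV, against 3.60% (3.32 to 3.89) with All-EV. Tpm1 held 15.6% (15.1 to 16.1) and 14.2% (13.8 to 14.7), against 20.7% (20.1 to 21.3). The summed level of the other 3 tropomyosins was 17994 with Ocn-EV and 18120.0 with Prx1-EV, against 15273 with All-EV, so the share of Tpm1 reflects their levels as well as its own. Lmod1 held 13.5% (12.1 to 14.9) and 12.5% (11.4 to 13.8) of leiomodin and tropomodulin reads, against 4.31% (3.54 to 5.18). Des held 0.247% (0.192 to 0.313) and 0.469% (0.399 to 0.549) of the reads of 4 intermediate filament genes, against 0.0648% (0.0434 to 0.0931). Most of the other reads in that family belonged to Vim, vimentin.

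**Figure D3:**
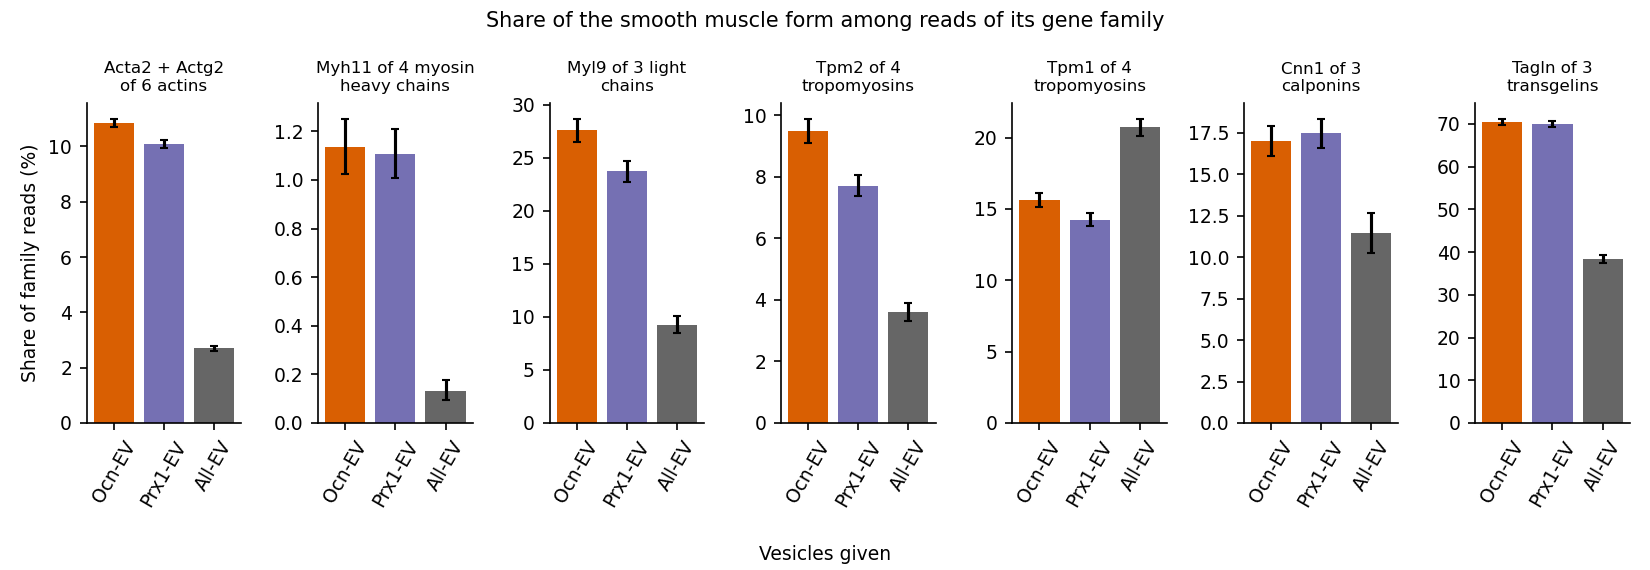
Share of family reads (%) held by the smooth muscle form in the Ocn-EV, Prx1-EV and All-EV libraries for 7 family groupings, with 95% exact binomial intervals; each panel has its own axis from 0. The share is higher with Ocn-EV and Prx1-EV in each panel but that of Tpm1, where All-EV is highest at 20.7%.

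Across the 24 paralogs, of which 18 reached a mean level of 50, there was no common direction. With Ocn-EV 5 were at least 1.5-fold higher and 4 lower (median log2 0.05), and with Prx1-EV 5 were higher and 4 lower (median −0.01). Beside these and the list counts below, 13.8% of all genes were at least 1.5-fold higher and 13.6% lower with Ocn-EV. With Prx1-EV the shares were 12.7% and 12.7%. With libraries set to equal totals, 2736 of the 11067 genes were higher and 736 lower with Ocn-EV, and 2539 and 720 with Prx1-EV. Actb, the main cytoplasmic actin, had log2 ratios of −0.11 with Ocn-EV and −0.14 with Prx1-EV, which became 0.15 and 0.09 with equal totals. Actg1, the other cytoplasmic actin, was lower (log2 −0.95 and −0.82, and −0.69 and −0.59 with equal totals). Its reads are less certain, as 43.5% of the 150-base windows of its longest transcript also occur in Gm12715, Gm16385 or Gm8399. Tmod1, a tropomodulin that caps actin filaments, was lower too (log2 −1.30 and −1.21).

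Other genes of the differentiated smooth muscle programme leaned the same way as the 10. Of 20 such genes, 14 reached the minimum level, and with Ocn-EV 9 of these were higher by 1.5-fold or more and 1 was lower (median log2 1.08). With Prx1-EV 9 were higher and 2 lower (median 0.85). Aoc3, an amine oxidase abundant on smooth muscle, had log2 ratios of 2.87 with Ocn-EV and 2.89 with Prx1-EV. Mylk, the kinase that phosphorylates the regulatory light chain, stood at 1115 with Ocn-EV and 839 with Prx1-EV, against 243 with All-EV (log2 2.19, 1.98 to 2.41, and 1.78, 1.57 to 2.01). Jph2, which ties membranes near calcium stores, stood at log2 2.10 and 1.79, Smtn, smoothelin, at 1.19 and 0.92, and Cald1, caldesmon, at 0.97 and 0.74. Rbpms, an RNA-binding splicing regulator of smooth muscle, was lower (log2 −1.68 and −1.51), and Pln, phospholamban, had 0 reads in every library.

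Enzymes and calcium sensors that set light chain phosphorylation had median ratios near 0. Of 14 genes at the minimum level, 3 were higher by 1.5-fold or more with Ocn-EV and 0 lower (median log2 0.03), and 2 were higher and 1 lower with Prx1-EV (median 0.08). The highest was Mylk, which also stands in the list of other smooth muscle genes. It was followed by Prkg1, the cGMP-dependent kinase of relaxation (log2 0.80 and 1.09), and Arhgef1, a guanine nucleotide exchange factor (0.61 and 0.53). Stress fibre and focal adhesion genes had 6 of 20 higher and 1 lower with Ocn-EV (median log2 0.42), and 6 higher and 2 lower with Prx1-EV (median 0.40). With libraries set to equal totals, 11 were higher and 1 lower in each. Nexn, nexilin, stood at log2 1.65 and 1.60 and Lpp at 1.23 and 1.05, whereas Tes, testin, stood at −1.38 and −1.28.

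SRF and its partners were mixed. Srf stood at 1512 with Ocn-EV and 1554 with Prx1-EV, against 2299.6 with All-EV (log2 −0.60, −0.70 to −0.51, and −0.57, −0.66 to −0.47), and −0.35 and −0.34 with equal totals. Mrtfa, the coactivator released when actin polymerises, was higher at 1784 and 1783, against 1118 with All-EV (log2 0.67, 0.56 to 0.79, and 0.67, 0.56 to 0.78). Its relative Mrtfb had log2 ratios of 0.25 and 0.29. Myocd, myocardin, the coactivator most specific to smooth and heart muscle, had 7 reads with Ocn-EV and 2 with Prx1-EV, against 0 with All-EV, too few to compare. The LIM-domain cofactors Csrp2 (log2 1.61 and 1.38) and Fhl2 (1.47 and 1.47) were higher, and Klf4, a repressor of smooth muscle genes, was lower (−1.06 and −0.78). Of the 9 genes of this list at the minimum level, 3 were at least 1.5-fold higher and 2 lower with Ocn-EV (median log2 0.25), and 3 higher and 1 lower with Prx1-EV (median 0.34). These counts depended on scaling. With libraries set to equal totals, 3 were higher and 1 lower with Ocn-EV (median 0.51), and 4 higher and 0 lower with Prx1-EV (median 0.56).

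Most of the tested stromal, myofibroblast and pericyte genes were higher, like the contractile genes. Stromal markers had 5 of 6 tested genes at least 1.5-fold higher and 0 lower with each vesicle (median log2 1.85 with Ocn-EV and 1.28 with Prx1-EV), and the 10 markers of that list took 0.525% and 0.342% of reads, against 0.081% with All-EV. Col1a1 stood at log2 2.52 and 1.95. Myofibroblast genes outside the contractile apparatus had 5 of 7 higher and 0 lower with each (median 1.27 and 1.26), led with Ocn-EV by Cthrc1 (2.59 and 1.87), Postn, periostin (2.10 and 1.45), and the collagen crosslinker Lox (1.57 and 1.28). Pericyte markers had 5 of 5 tested genes higher (median 1.63 and 1.41), among them Pdgfrb (2.06 and 1.55) and Cspg4 (1.92 and 1.67). The 9 pericyte markers took 0.0122% and 0.00995% of reads, against 0.00329%. The defining pericyte genes Rgs5, Kcnj8, Abcc9 and Higd1b had at most 10 reads in any library.

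Macrophage markers went both ways, with 6 of 14 at least 1.5-fold higher and 3 lower with Ocn-EV (median log2 0.36) and 4 higher and 5 lower with Prx1-EV (median 0.26). With libraries set to equal totals, 7 were higher and 2 lower with Ocn-EV (median 0.62), and 6 were higher and 3 lower with Prx1-EV (median 0.49). They took 1.05% of reads with Ocn-EV and 0.886% with Prx1-EV, against 1.39% with All-EV, and Lyz2 had the most reads of them in each library. Lyz2 also had the lowest Ocn-EV ratio of the list (log2 −1.44), so the summed share does not speak for all 14 markers. Megakaryocyte and platelet markers, cells that also express Myl9, had 3 of 3 tested genes lower (median −2.52 and −2.73). They took 0.018% and 0.017% of reads, against 0.0699% with All-EV, and Gp9 had 0 reads in every library. Of 18 skeletal and heart muscle markers only Tnni2 reached the minimum level (log2 −0.60 and −0.63), and Myod1, Myog, Myf5, Pax7, Myh1, Myh2 and Myh3 had 0 reads in every library. Endothelial markers had 3 of 5 higher with Ocn-EV and 2 of 5 with Prx1-EV, and 0 lower in both (median 0.64 and 0.03). Osteoblast markers had 3 of 4 tested genes higher in each (median 3.16 and 1.78), Ibsp, Sp7 and Alpl, and these 3 were also higher with Ocn-EV than with Prx1-EV. The 6 markers of that list took 0.015% and 0.00602% of reads, against 0.00224% with All-EV, where 2 of the 6 had 0 reads. As the minimum is a mean over the 3 libraries, a gene low with All-EV can pass it through the others. Of 4 adipocyte markers tested, 1 was lower with Ocn-EV and 1 higher with Prx1-EV, and with equal totals 2 were higher and 0 lower in each. The part of the mix of cells in the contractile gene ratios was not tested.

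**Figure D4:**
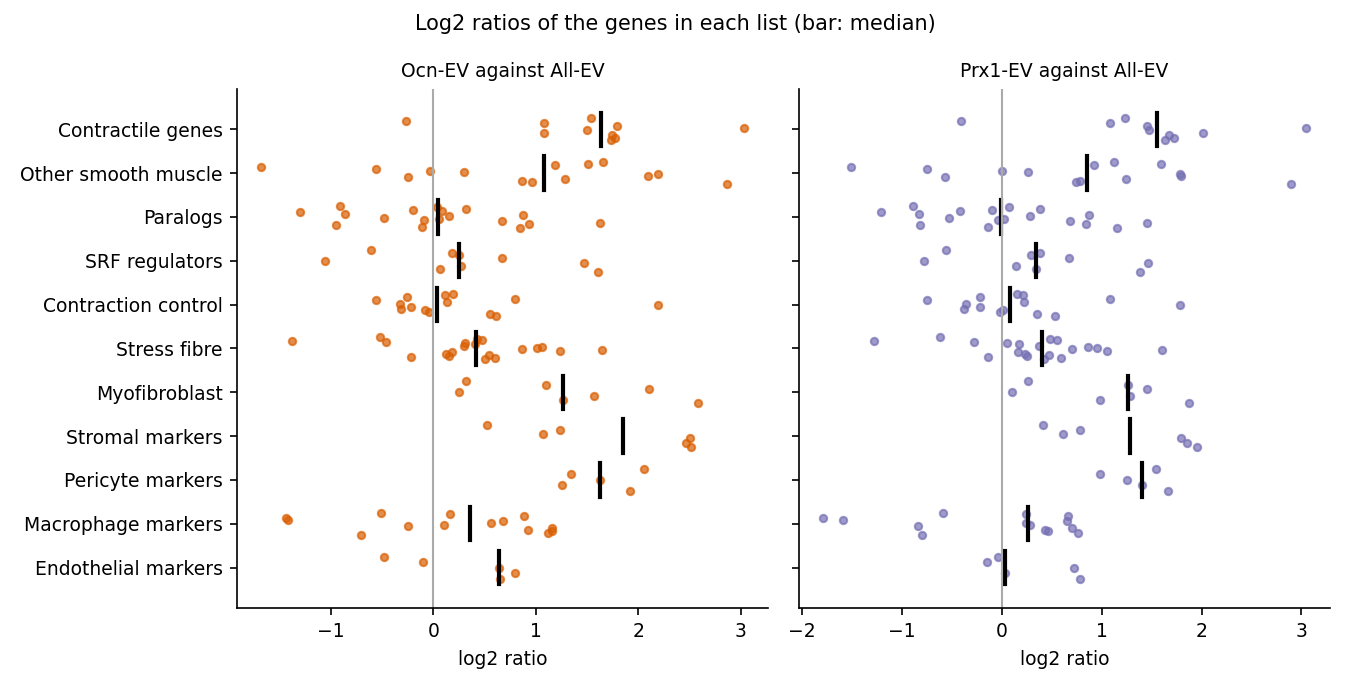
Log2 ratio to All-EV of each gene with a mean level of at least 50 (points) in 11 gene lists, with the median of each list (bar), for Ocn-EV and Prx1-EV. The contractile genes have medians of 1.64 and 1.55, beside 0.05 and −0.01 for their paralogs and 1.85 and 1.28 for stromal markers.

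The genes with the pattern most like that of Acta2 were sought among the 8055 other named genes that averaged 200 or more, by the distance between the pairs of log2 ratios to All-EV over the 3 libraries. Among the 5 nearest were Lacc1 (log2 1.77 with Ocn-EV and 1.62 with Prx1-EV), Sdc2 (1.80 and 1.60), Ifi204 (1.78 and 1.69) and Cmklr1 (1.81 and 1.64), at distances from 0.0305 to 0.0762. Cnn1 lay at 0.045 and 2 of the 8055 genes were nearer, Actg2 at 0.104 and 8 were nearer, and Myl9 at 0.18 and 19 were nearer. Tagln (0.86), Myh11 (1.92) and Tpm1 (2.85) had 220, 1678 and 6037 genes nearer to Acta2 than themselves. This likeness rests on 3 libraries.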

How the data were processed

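Messenger RNA of 3 treated cultures was measured, 1 library per group, with groups taken from the sample labels. In the deposited table each gene has a signal value for every library, a read count that the authors divided by a factor for that library. The submitters' processing notes name build mm10, featureCounts 2.0.3, HISAT2 2.2.1, DESeq2 2.11.40.8, Trimmomatic 0.38.1 and FastQC 0.74, without order or settings. Dividing by the smallest step in a library gave whole reads for 100% of values, at a tolerance of 1e-06.

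Symbols came from RefSeq GRCm38.p6 (25275 of 27179 identifiers matched) and lengths from GENCODE vM21. Comparisons used the 11067 genes averaging 50 or more, as log2((a + 1)/(b + 1)), which understates ratios of low genes, while folds carry no pseudocount. Ratio intervals are exact conditional binomial, share intervals exact Clopper-Pearson. Calculations were tested on simulated data. An exact binomial test on the reads with Benjamini-Hochberg adjustment, which compares 2 libraries and not conditions, called 7134 genes for Ocn-EV and 7092 for Prx1-EV (each set against All-EV), and 2840 between the Cre-line groups.

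The members and lists were chosen with earlier results of these data known. Named were the 10 members, 10 related genes, up to 3 genes per list with the largest absolute Ocn-EV ratio and the 5 nearest to Acta2. Other genes named were chosen after their values were seen. Some genes that these rules name are not reported here. Tools were Python 3.11.15, numpy 2.4.6, pandas 2.3.3, scipy 1.17.1, matplotlib 3.10.9, R 4.3.3 and edgeR 4.0.16 (TMM factors only).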

Additional observations from a re-analysis of the deposited data

How the results depend on the processing

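Equal library totals, TMM scaling, pseudocounts of 0.1 and 10 and removal of the length and GC trend left 9 of 10 genes at least 1.5-fold higher and 0 lower in both comparisons with All-EV, and so did filters of 10 and none. A filter of 200 drops Des, which leaves 8 genes higher in each and 0 genes lower by 1.5-fold between Ocn-EV and Prx1-EV. Equal totals moved the median of all genes by 0.26 (Ocn-EV) and 0.22 (Prx1-EV), and that of the 10 to 1.90 and 1.77. They also moved the share of higher genes among those 2-fold apart, at 81.8% and 79.6%, against 59.9% and 58.3% as deposited. Among genes 1.5-fold apart that share was 78.8% and 77.9%, against 50.4% and 50.0%. The ratio of Myh11 to All-EV ranged from 2.73 to 3.28 with Ocn-EV and from 2.79 to 3.26 with Prx1-EV, and the lowest value of each came with the length and GC trend removed. The exact binomial test on reads called 7134 genes for Ocn-EV and 7092 for Prx1-EV (each set against All-EV), where 1159 and 972 were 2-fold apart, and 2840 between the Cre-line groups, where 57 were. For the other lists, equal totals and TMM were added after seeing the data. Equal totals took the stress fibre genes at least 1.5-fold higher to 11 in each comparison, against 6 as deposited. The count over all genes rose as well, to 2736 with Ocn-EV and 2539 with Prx1-EV, against 1528 and 1400 as deposited. Equal totals also took the macrophage markers with Prx1-EV to 6 higher and 3 lower, against 4 and 5 as deposited. In the SRF list, 1 gene was then lower with Ocn-EV and 0 with Prx1-EV, against 2 and 1 as deposited. No paired analysis was possible because each group has 1 library. Depth limits Des (29 to 155 reads), Myh11 in All-EV (42 reads) and Myocd (at most 7).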
